A study of Mus musculus with 6 samples.

Results

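Collagen chain genes encode the subunits of the main structural proteins of the extracellular matrix. They were taken as every gene whose symbol is Col, a type number, the letter a and a chain number. The GENCODE M21 annotation of the mouse holds 44 such genes, and 40 of them had a value among the 14548 genes measured. Expression of *Col25a1*, *Col6a5*, *Col6a6* and *Col9a1* was not analysed here. Of the 40 chains, 18 reached 1 FPKM (the fragments on a gene, scaled by its length and by the size of the library) in at least 1 library and were tested, and 22 stayed under it in every library.

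RNA was sequenced from C2C12, an established mouse myoblast line whose dividing cells can fuse into muscle fibres, in 3 WT and 3 MSTN-KO libraries. The KO cells were 1 line, C11, in which Cas9 was directed to exon 3 of the myostatin gene *Mstn*. The cells grew in medium with serum, and the labels name no treatment or time. The labels give the strain C11 for WT libraries as well, so the grouping rests on the labelled genotype, and they do not say whether replicates were separate cultures, so p-values measure only the spread between these libraries. *Mstn* RNA lay at 0.0211, 0 and 0.0399 FPKM in WT replicates 1 to 3, and the MSTN-KO replicates had 0.0269, 0.0586 and 0.0390 FPKM, too low in both groups to check the labels.

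Collagen chains wind around each other as trimers, inside the cell, before they are secreted. Fibrillar chains form the cross-banded fibres of connective tissue, and type IV chains form the sheet of the basement membrane around each muscle fibre. Type VI chains build beaded microfilaments that link that sheet to the surrounding matrix. FACIT chains (fibril-associated collagens with interrupted helices) sit on the surface of fibrils, and transmembrane chains stay anchored in the cell membrane. Loss of type VI chains is a known cause of inherited muscular dystrophy.

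In the MSTN-KO libraries, *Col6a2* and *Col6a1* rose by 41.5-fold and 23.9-fold, *Col12a1* by 3.86-fold, *Col16a1* by 1.81-fold and *Col3a1* by 1.59-fold in mean FPKM. *Col18a1* fell, with a mean FPKM 2.31-fold higher in WT. The other 12 tested chains, among them both type I chains and both main type IV chains, did not pass an adjusted p of 0.05. The 5 rises were 27.8% of the 18 chains, where 8.78% of all 10837 tested genes rose, and the 1 fall was 5.56%, where 8.96% of all tested genes fell. In either direction, 17.7% of all tested genes passed.

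Promoter sequences of the 2 chains that rose most and of the chain that fell are printed here because all 3 genes lie within 1 stretch of chromosome 10 and moved in opposite directions. Each is a RefSeq window of the GRCm38.p6 build from 250 bases before to 50 bases after a start site, on the gene's strand, 5′ to 3′. Capitals mark the AP-1 motif TGANTCA and the GC box GGGCGG, searched on both strands. *Col6a2* has a pair of RefSeq starts, 226 bases apart, so its windows overlap. The windows are chr10:76725995-76726294 for *Col6a1*, chr10:76623581-76623880 and chr10:76623355-76623654 for the outer and inner starts of *Col6a2*, and chr10:77166481-77166780 for *Col18a1*.
*Col6a1*: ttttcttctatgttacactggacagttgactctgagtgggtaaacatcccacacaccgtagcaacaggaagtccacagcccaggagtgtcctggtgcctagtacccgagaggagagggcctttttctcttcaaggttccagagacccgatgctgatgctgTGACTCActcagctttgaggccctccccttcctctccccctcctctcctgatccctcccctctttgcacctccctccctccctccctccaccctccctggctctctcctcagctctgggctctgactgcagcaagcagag
*Col6a2*, outer start: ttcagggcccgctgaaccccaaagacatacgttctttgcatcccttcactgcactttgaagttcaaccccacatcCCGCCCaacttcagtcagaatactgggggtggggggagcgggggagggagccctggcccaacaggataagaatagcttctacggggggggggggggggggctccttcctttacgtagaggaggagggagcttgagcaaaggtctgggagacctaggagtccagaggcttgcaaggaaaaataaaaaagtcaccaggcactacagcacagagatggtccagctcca
*Col6a2*, inner start: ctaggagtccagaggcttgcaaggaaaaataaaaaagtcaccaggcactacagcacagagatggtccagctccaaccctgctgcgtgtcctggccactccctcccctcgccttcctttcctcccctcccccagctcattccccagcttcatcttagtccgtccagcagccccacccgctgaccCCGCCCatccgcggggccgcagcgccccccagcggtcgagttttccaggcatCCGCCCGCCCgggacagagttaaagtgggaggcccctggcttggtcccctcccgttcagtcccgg
*Col18a1*: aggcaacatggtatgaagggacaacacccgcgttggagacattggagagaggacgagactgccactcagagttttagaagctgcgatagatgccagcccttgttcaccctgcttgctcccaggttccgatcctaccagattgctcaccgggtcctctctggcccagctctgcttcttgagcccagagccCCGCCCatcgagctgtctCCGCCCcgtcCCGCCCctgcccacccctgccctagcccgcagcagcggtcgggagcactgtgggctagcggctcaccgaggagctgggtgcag
The *Col6a1* window held 1 AP-1 motif, 90 bases before the RefSeq start, and no GC box. That start lies 124 bases inside the GENCODE gene, so the motif is also within the annotated gene. The outer *Col6a2* window held 1 GC box and the inner one 3, and the *Col18a1* window held 3, with no AP-1 motif in any of them. *Col18a1* has a further RefSeq start, 52843 bases inside the gene, which held neither motif. RefSeq promoters were matched for 35 of the 44 annotated chains, in 38 windows, the 4 chains without an expression value included. The AP-1 motif was in 1 of the 38 and in 7.81% of all 32851 promoter windows, and the GC box was in 23 of the 38 and in 35.7% of all windows. Other motifs were searched and are not marked. The E-box CANNTG was in 20 of the 38 and in 72.3% of all windows. The CCAAT box was in 13 of the 38 and in 37.4%, and the TATA box TATAAA in 5 and in 13.6%. The match is a description of letters, and no binding was measured.

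The cell type was checked by marker genes. The myoblast markers *Myod1*, *Myf5*, *Des* and *Itga7*, together with the other measured member *Pax7*, summed to 950.3 to 1356 FPKM in WT and 596 to 737 FPKM in MSTN-KO, with 3 of 5 lower and 1 higher. All 7 measured markers of differentiated muscle were lower in MSTN-KO, and their sum ran from 214 to 768 FPKM in WT, lowest in WT replicate 3, and from 31.4 to 57.1 FPKM in MSTN-KO. The 4 endothelial markers stayed below 0.1 FPKM in every library. Of the fibroblast markers 4 of 7 were measured, and their sum was 9.39 to 12.3 FPKM in WT and 22.6 to 28.3 FPKM in MSTN-KO, with *Pdgfrb* higher, *Dcn* lower, and *Dpt* and *Pdgfra* under 1 FPKM in every library. Of chondrocyte and osteoblast markers 3 of 6 had a value and 1 fell, *Sox9*, with list sums of 26.6 to 35.1 FPKM in WT and 17.5 to 20.1 FPKM in MSTN-KO. Of the immune markers 1 of 4 was measured (0.702 to 2.39 FPKM over both groups), and of the adipocyte markers 1 of 4 (at most 0.0639 FPKM). Of the epithelial markers 3 of 4 were measured, and *Krt14* reached 24.6 to 52.1 FPKM over both groups, while *Krt5* and *Cdh1* were under 1 FPKM in every library. The part of these cell states in the collagen values was not tested, and in bulk RNA fewer cells of a type and less RNA per cell cannot be told apart. The estimated depth was 14.6 to 18.9 times 1000000 fragments per library, at which 1 fragment on a gene of 5 kb is worth 0.011 to 0.014 FPKM.

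**Figure D1:**
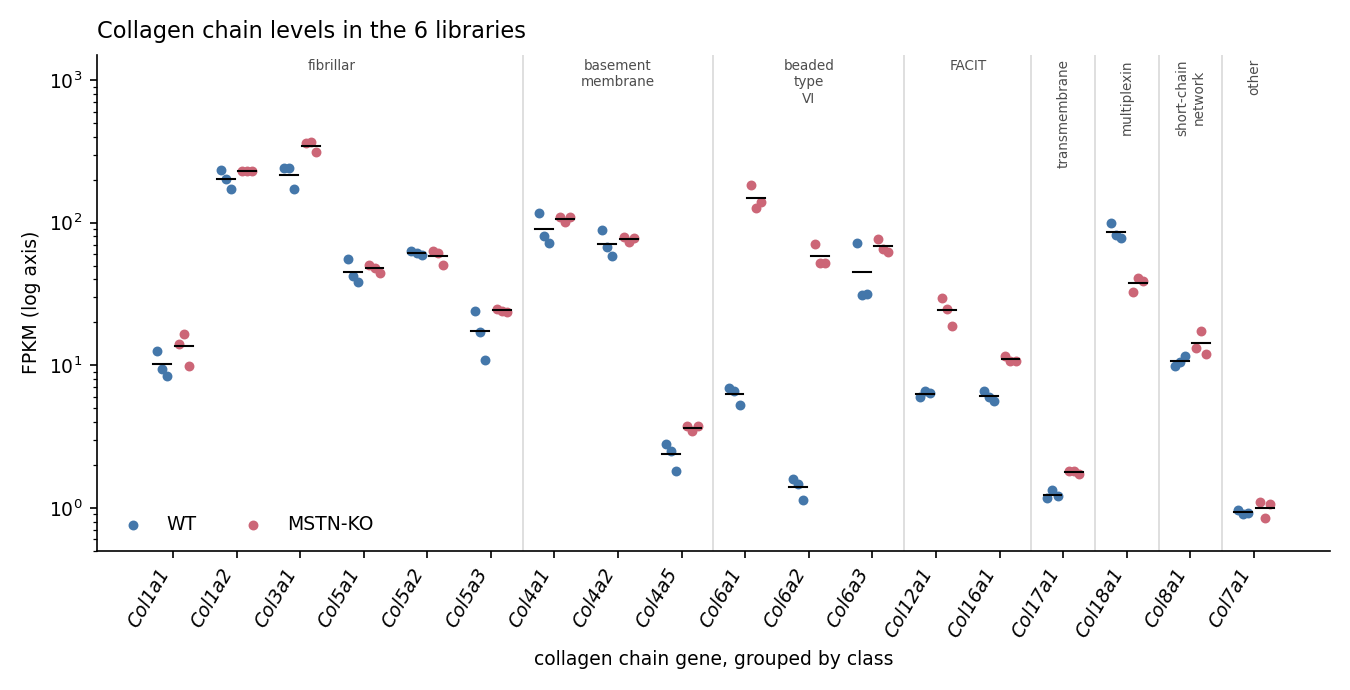
FPKM of the 18 tested collagen chain genes on a log axis, grouped by class along the horizontal axis, with 1 point per library and a bar at the mean of 3 libraries. *Col6a1* and *Col6a2* lie between 1.14 and 6.91 FPKM in WT and between 51.8 and 184.5 FPKM in MSTN-KO, and *Col18a1* is the one chain whose WT points all lie above its MSTN-KO points.

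*Col6a1* and *Col6a2*, chains of type VI collagen, changed most of the 18 tested chains. *Col6a1* (ENSMUSG00000001119, chromosome 10 from 76708792 to 76726168 of GRCm38, minus strand) encodes the alpha-1 chain and had 6.91, 6.64 and 5.24 FPKM in WT replicates 1 to 3 and 184.5, 126.5 and 138.4 FPKM in MSTN-KO replicates 1 to 3. The lowest MSTN-KO library was far above the highest WT library, and the rise was 4.36 on the log2(FPKM + 1) scale (standard error 0.16, limma adjusted p = 2.58e-09). *Col6a2* (ENSMUSG00000020241, chromosome 10 from 76595762 to 76623630, minus strand) encodes the alpha-2 chain and had 1.59, 1.48 and 1.14 FPKM in WT and 71.0, 51.8 and 51.8 FPKM in MSTN-KO. Its groups were as far apart, with a rise of 4.61 (standard error 0.16, limma adjusted p = 2.58e-09). They ranked first and second for log2 rise among the tested genes that have a symbol, *Col6a2* before *Col6a1*. Values of low genes are understated on this scale, since 1 is added to each FPKM.

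*Col6a3* (ENSMUSG00000048126, chromosome 1 from 90765923 to 90843971, minus strand) encodes the large alpha-3 chain, which can join the alpha-1 and alpha-2 chains in a type VI monomer. It had 72.1, 31.3 and 31.8 FPKM in WT and 76.9, 65.1 and 62.5 FPKM in MSTN-KO. WT replicate 1 lay among the MSTN-KO libraries, so the groups overlapped, and the difference of 0.69 (95% interval 0.15 to 1.23) did not pass (limma adjusted p = 0.0725). Without WT replicate 1 it was 1.08 (limma adjusted p = 0.00124). *Col6a4* stayed at 0 to 0.00619 FPKM in WT and 0.0327 to 0.0744 FPKM in MSTN-KO.

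FPKM is a value per length, so levels of different chains were set side by side. The gene models behind the values are not given in the sources used here. An error in the length used for a chain would shift its level against the others, so shares and ratios between chains are approximate. In WT, *Col6a3* made up 84.0% ± 5.08 (SD, n = 3) of the summed type VI FPKM, *Col6a1* 13.1% ± 4.19 and *Col6a2* 2.90% ± 0.891. In MSTN-KO, the shares were 24.9% ± 1.81 for *Col6a3*, 54.1% ± 1.86 for *Col6a1* and 21.04% ± 0.473 for *Col6a2*. The order of the 3 chains thus went from *Col6a3* highest in every WT library to *Col6a1* highest in every MSTN-KO library. The level of *Col6a3* was 21.2 to 45.3 times that of *Col6a2* in WT and 1.08 to 1.26 times in MSTN-KO. The summed type VI level was 80.6, 39.4 and 38.2 FPKM in WT and 333, 243 and 253 FPKM in MSTN-KO, a 5.24-fold higher mean.

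**Figure D2:**
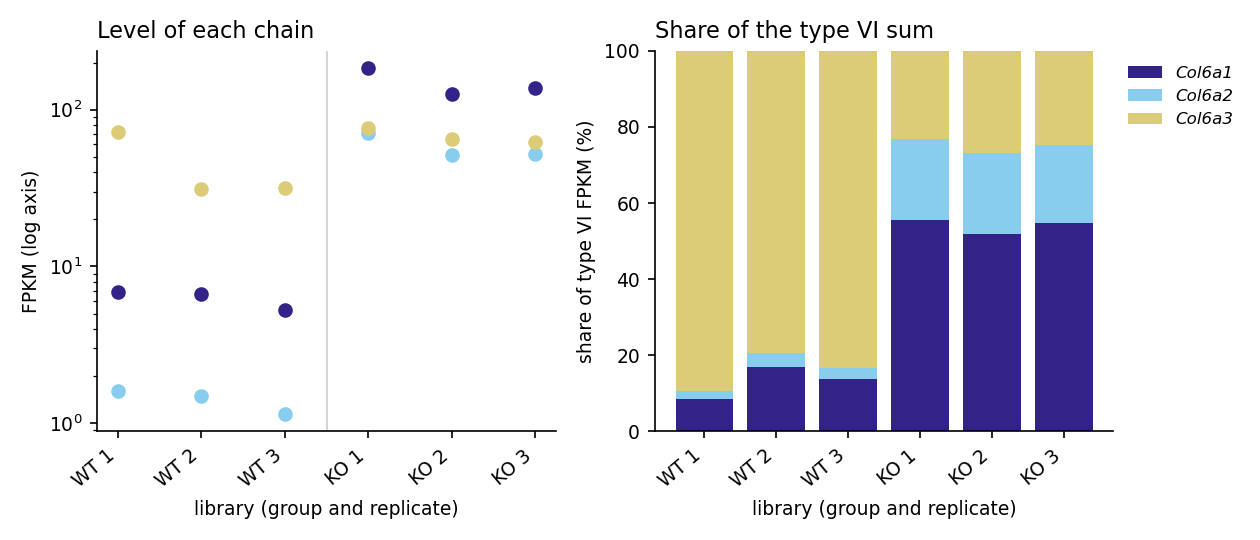
Type VI chains in each of the 6 libraries (KO is MSTN-KO), with the FPKM of *Col6a1*, *Col6a2* and *Col6a3* on a log axis on the left and their share of the summed type VI FPKM in percent on the right. *Col6a3* takes most of every WT bar, 84.0% on average, and *Col6a1* most of every MSTN-KO bar, 54.1% on average.

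The *Col6a1* to *Col6a2* ratio was 4.33, 4.50 and 4.599 in WT and 2.60, 2.44 and 2.67 in MSTN-KO. It was lower in every MSTN-KO library, by 0.80 on the log2 scale. The size of this difference depended on the scale, at -0.25 when 1 was added to each FPKM, and on that scale at -0.32 after quantile normalization and -0.30 after the length and GC correction. With 3 libraries against 3 the two-sided exact permutation test cannot give a p below 0.1, and it gave p = 0.1 (adjusted p = 0.2 over 4 chain pairs). The *Col4a1* to *Col4a2* ratio, of chains that assemble in the basement membrane, was 1.31, 1.21 and 1.24 in WT and 1.37, 1.39 and 1.39 in MSTN-KO, with the same exact p = 0.1 and adjusted p = 0.2. The *Col5a1* to *Col5a2* ratio ran from 0.648 to 0.883 in WT and from 0.785 to 0.891 in MSTN-KO (exact permutation p = 0.3, adjusted p = 0.4). The *Col1a1* to *Col1a2* ratio ran from 0.0466 to 0.0535 in WT and from 0.0428 to 0.0716 in MSTN-KO (exact permutation p = 0.5, adjusted p = 0.5). Most type I trimers hold more alpha-1 than alpha-2 chains, and in these libraries the *Col1a2* level was 13.97 to 23.4 times that of *Col1a1*.

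*Col6a2* and *Col6a1* lie on the same strand with 85.2 kb between them, and *Col18a1* lies 326 kb beyond *Col6a1*. Within 700 kb to each side of *Col6a1* there were 14 other genes with a value, of which 12 were tested. Of these 12, only *Adarb1*, an RNA-editing enzyme gene, rose (0.54 on the log2 scale), and none fell at the limma adjusted p of 0.05. Of all tested genes 8.78% rose and 8.96% fell, so the count of rises is near the share of all genes. Their differences ran from -0.56 for *Pcbp3* to 0.54, against 4.61 and 4.36 for the pair of type VI chains.

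**Figure D3:**
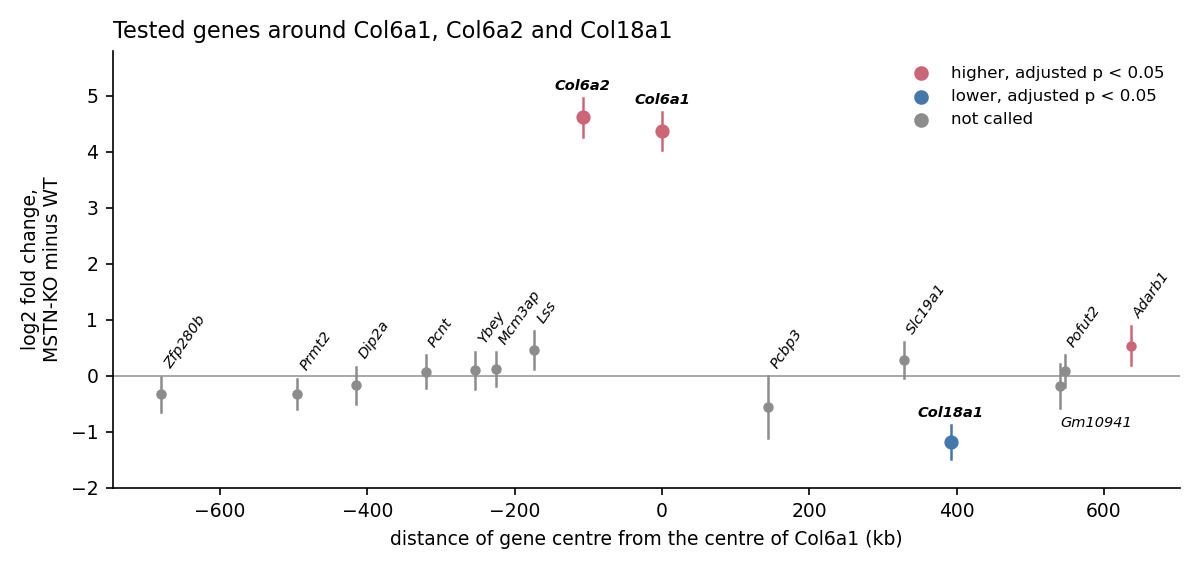
Log2 fold change of FPKM + 1, MSTN-KO minus WT, of the tested genes within 700 kb of *Col6a1*, against the distance of each gene's centre from that of *Col6a1* in kb, with 95% intervals as bars. *Col6a2* and *Col6a1* stand at 4.61 and 4.36 and *Col18a1* at -1.18, while the 12 other genes lie between -0.56 and 0.54.

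*Col18a1* (ENSMUSG00000001435, chromosome 10 from 77052178 to 77166548, minus strand) encodes a basement membrane proteoglycan of the multiplexin class, whose end is released as endostatin. It had 99.96, 81.2 and 78.2 FPKM in WT and 32.8, 40.7 and 38.8 FPKM in MSTN-KO. Every WT library was above every MSTN-KO library, and the gene fell by 1.18 on the log2 scale (standard error 0.14, limma adjusted p = 8.31e-05). It overlaps *Slc19a1* on the opposite strand, and the use of strand in the counting is not given in the sources used here. *Slc19a1* had 16.9 to 22.9 FPKM in WT and 22.7 to 27.0 FPKM in MSTN-KO. *Col15a1*, the other multiplexin, was under 0.1 FPKM in every library.

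Both tested FACIT chains rose, where 8.78% of all tested genes did. *Col12a1* (ENSMUSG00000032332, chromosome 9 from 79598991 to 79718831, minus strand), which binds type I fibrils in tendon and muscle sheaths, had 5.94, 6.57 and 6.40 FPKM in WT and 29.4, 24.8 and 18.7 FPKM in MSTN-KO. The MSTN-KO libraries were all above the WT libraries but spread more widely, and the rise was 1.77 (standard error 0.16, limma adjusted p = 1.02e-05). *Col16a1* (ENSMUSG00000040690, chromosome 4 from 130047840 to 130099283, plus strand) had 6.63, 6.03 and 5.58 FPKM in WT and 11.6, 10.7 and 10.7 FPKM in MSTN-KO. Its groups did not overlap either, and it rose by 0.76 (standard error 0.14, limma adjusted p = 0.00262). The other 6 measured FACIT chains were under 1 FPKM in every library, and the class sum was 12.7 ± 0.387 FPKM in WT and 35.5 ± 5.78 FPKM in MSTN-KO (SD, n = 3).

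Among fibrillar chains, 1 of 6 tested rose (16.7%, against 8.78% of all tested genes) and none fell (against 8.96%). *Col3a1* (ENSMUSG00000026043, chromosome 1 from 45311538 to 45349706, plus strand), the chain of the thin type III fibrils of soft tissue, had the highest mean FPKM of the chains in both groups. It had 239.6, 240.0 and 172 FPKM in WT and 360.2, 367 and 310.4 FPKM in MSTN-KO. The groups did not overlap, and the rise was 0.68 (standard error 0.15, limma adjusted p = 0.00765). With quantile normalization it was 0.52 (limma adjusted p = 0.0608), and with each library scaled to the same sum it was 0.40 (limma adjusted p = 0.102), so this call was lost under both. *Col5a2*, which lies 24.6 kb from *Col3a1*, had 62.8, 61.0 and 58.9 FPKM in WT and 62.8, 61.4 and 50.04 FPKM in MSTN-KO. Its groups overlapped, with a difference of -0.07 (95% interval -0.35 to 0.20, limma adjusted p = 0.721).

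*Col1a2*, the alpha-2 chain of type I collagen, had 235, 202 and 172 FPKM in WT and 230.3, 232 and 232 FPKM in MSTN-KO. *Col1a1*, its alpha-1 partner, had 12.6, 9.43 and 8.42 FPKM in WT and 14.1, 16.6 and 9.90 FPKM in MSTN-KO. The groups overlapped for both chains, and the differences were 0.20 and 0.37 (limma adjusted p = 0.325 and 0.196). *Col5a1*, which with *Col5a2* forms the type V core that sets fibril width, had 55.5, 42.5 and 38.1 FPKM in WT and 50.8, 48.2 and 44.6 FPKM in MSTN-KO. It differed by 0.09 (limma adjusted p = 0.703). *Col5a3* had 23.9, 17.0 and 10.9 FPKM in WT and 25.0, 24.1 and 23.7 FPKM in MSTN-KO, with WT replicate 1 close to the MSTN-KO libraries. It differed by 0.53 (limma adjusted p = 0.0975), and by 0.79 without WT replicate 1 (limma adjusted p = 0.0211).

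None of the 3 tested basement membrane chains passed, where 17.7% of all tested genes did in either direction. With so few chains, a count of none is near that share. *Col4a1* had 117, 81.0 and 71.7 FPKM in WT and 108.7, 101 and 108.7 FPKM in MSTN-KO, a difference of 0.27 (95% interval -0.08 to 0.62, limma adjusted p = 0.272). *Col4a2*, which shares a start region with it, had 89.2, 66.9 and 57.9 FPKM in WT and 79.5, 72.9 and 78.2 FPKM in MSTN-KO, a difference of 0.13 (limma adjusted p = 0.592). In both, WT replicate 1 was the highest of all 6 libraries and the other two WT libraries lay below the MSTN-KO libraries. Without WT replicate 1, *Col4a1* differed by 0.47 (limma adjusted p = 0.0326). The annotated *Col4a1* and *Col4a2* genes overlap by 22 bases at their starts on opposite strands of chromosome 8, and reads from there cannot be told apart without strand. A stretch of 78 bases, chr8:11312777-11312854 of GRCm38.p6 read on the plus strand, is common to their RefSeq promoter windows and is shown here with its GC box in capitals.
*Col4a1* and *Col4a2*: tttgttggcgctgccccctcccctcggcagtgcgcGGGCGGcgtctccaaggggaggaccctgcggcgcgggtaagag
*Col4a5*, a chain on the X chromosome, had 2.804, 2.51 and 1.81 FPKM in WT and 3.74, 3.43 and 3.75 FPKM in MSTN-KO. Its groups did not overlap, and the difference was 0.47 (limma adjusted p = 0.0660). It passed without the trend (limma adjusted p = 0.0495), with quantile normalization (0.61, limma adjusted p = 0.0271) and with the length and GC correction (0.46, limma adjusted p = 0.0264).

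The remaining 3 tested chains were of other classes. *Col8a1*, a short chain of hexagonal networks, had 9.89, 10.5 and 11.6 FPKM in WT and 13.2, 17.4 and 12.1 FPKM in MSTN-KO (difference 0.37, limma adjusted p = 0.118). *Col17a1*, a transmembrane chain of epithelial anchoring junctions, ran from 1.16 to 1.34 FPKM in WT and from 1.73 to 1.82 FPKM in MSTN-KO (difference 0.32, limma adjusted p = 0.177). *Col7a1*, the chain of anchoring fibrils, passed the filter only through MSTN-KO libraries and ran from 0.911 to 0.959 FPKM in WT and from 0.845 to 1.10 FPKM in MSTN-KO (difference 0.05, limma adjusted p = 0.856). The groups did not overlap for *Col8a1* and *Col17a1* and overlapped for *Col7a1*. *Col17a1* passed with quantile normalization (0.48, limma adjusted p = 0.0432). *Col8a1* passed with the length and GC correction (0.44, limma adjusted p = 0.0274).

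**Figure D4:**
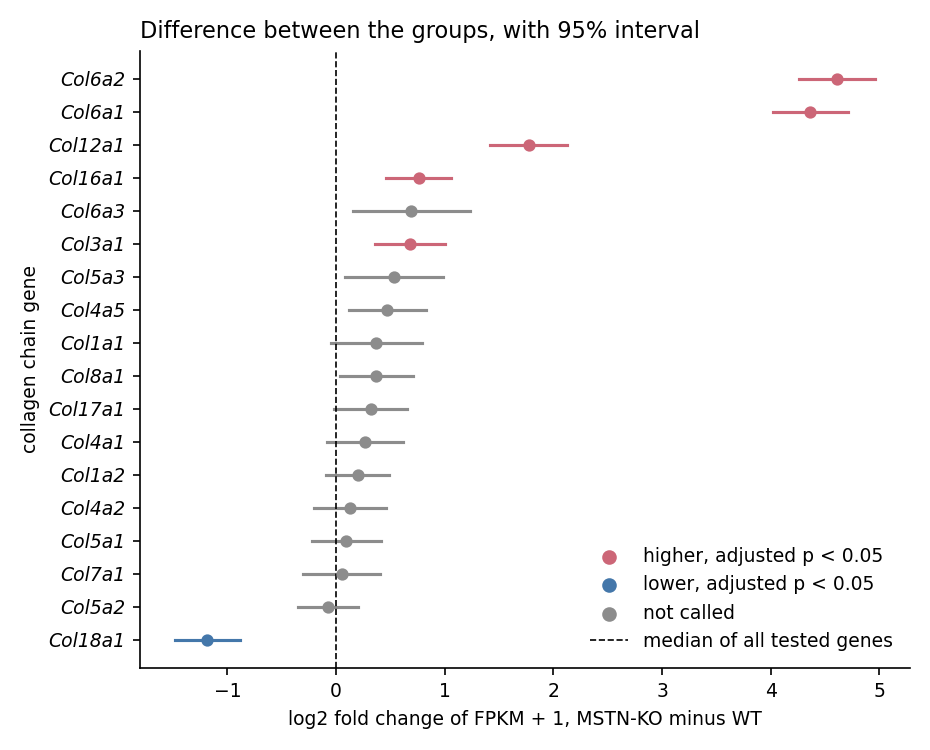
Log2 fold change of FPKM + 1, MSTN-KO minus WT, of the 18 tested chains in order of size, with 95% intervals as bars and colour for the call at an adjusted p of 0.05. *Col6a2* and *Col6a1* stand apart at 4.61 and 4.36, 5 chains are marked higher, *Col18a1* at -1.18 is marked lower, and 16 of the 18 points lie above 0.

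Over the 18 tested chains, the median log2 difference was 0.37 and 16 differences (88.9%) were above 0, where 49.9% of all tested genes were. The 16 include *Col7a1*, at 0.05, which passed the filter only through MSTN-KO libraries. Scaling the libraries to the same sum moved the median of all tested genes by -0.26 and that of the chains to 0.13, so that the chains lay 0.39 above it. Under that scaling the differences of *Col1a2*, *Col5a1*, *Col4a1*, *Col4a2* and *Col7a1* turned negative. In 8 chains (44.4%) every MSTN-KO library lay above every WT library, where this held for 19.3% of all tested genes, and in 1, *Col18a1*, the reverse held, where it did for 18.1%. The study's cutoffs ask for an unadjusted p below 0.05 and a log2 difference of more than 1 in size. Applied to the limma fit used here, they called *Col6a1*, *Col6a2* and *Col12a1* upregulated and *Col18a1* downregulated. In this fit they called 1.21% of all tested genes upregulated and 2.30% downregulated. The study made its own calls with the iDEP software and reported more upregulated than downregulated genes, so its lists differ from these.

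The number of chains that rose depended on WT replicate 1. It was the highest WT library in 14 of the 18 chains, and WT replicate 3 was the lowest in 13. Without WT replicate 1, 8 chains rose in place of 5, with *Col4a1*, *Col5a3* and *Col6a3* added. Over all genes, 795 of 10775 tested rose in that setting, in place of 952 of 10837. The libraries of MSTN-KO also differed, with replicate 1 highest in 11 chains and replicate 3 lowest in 10. The sum of all measured chains was 1045, 869.8 and 735 FPKM in WT and 1359, 1268 and 1198 FPKM in MSTN-KO. The mean was 883 ± 156 FPKM in WT and 1275 ± 81.1 FPKM in MSTN-KO (SD, n = 3), 1.44-fold higher. As a share of all FPKM in a library the chains made up 0.118% ± 0.0212 in WT and 0.1404% ± 0.0180 in MSTN-KO, ranges of 0.0961 to 0.138 and 0.1198 to 0.153 that overlapped.

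The rank order of the chains by their share of that sum changed in the middle. *Col3a1* (24.7% of all chain FPKM in WT and 27.1% in MSTN-KO) and *Col1a2* (23.0% and 18.2%) were first and second in both groups. *Col6a1* moved from rank 13, at 0.713%, to rank 3, at 11.7%. *Col6a2* moved from rank 16, at 0.159%, to rank 8, at 4.54%. *Col18a1* moved from rank 4, at 9.85%, to rank 10, at 2.95%.

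The 22 chains below 1 FPKM in every library reached at most 0.460 FPKM, in *Col27a1*, and 14 of them stayed below 0.1 FPKM. They were 5 fibrillar chains (*Col2a1*, *Col11a1*, *Col11a2*, *Col24a1* and *Col27a1*), 3 basement membrane chains (*Col4a3*, *Col4a4* and *Col4a6*), *Col6a4*, and 6 FACIT chains (*Col9a2*, *Col9a3*, *Col14a1*, *Col19a1*, *Col20a1* and *Col22a1*). The rest were the transmembrane chains *Col13a1* and *Col23a1*, the multiplexin *Col15a1*, the short chains *Col8a2* and *Col10a1*, and *Col26a1* and *Col28a1*. Several of them, such as *Col2a1* and *Col10a1*, are chains of cartilage. In 7 of the 22 (31.8%) the MSTN-KO libraries all lay above the WT libraries, where this held for 6.52% of all untested genes. In 1, *Col14a1*, the reverse held, where it did for 14.2%. *Col4a6* had 0.0506, 0.0780 and 0.0267 FPKM in WT and 0.311, 0.313 and 0.265 FPKM in MSTN-KO. These levels rest on few fragments.

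Genes that modify, export, trim, cross-link or bind collagen were described from a list of 51, of which 45 had a value and 41 were tested. Of the 41, 6 rose (14.6%, against 8.78% of all tested genes), 2 fell (4.88%, against 8.96%) and 33 did not pass. In either direction this was 19.5%, against 17.7% of all tested genes. The 6 that rose include *Adamts2*, which passed the filter only through MSTN-KO libraries. The number that fell depended on the scaling, with 10 after scaling to the same sum and 5 after scaling by the percentile 75 or after the length and GC correction. The lists within the 41 hold 4 to 11 tested genes, so their counts are read against the same shares of all tested genes. In propeptide removal, 2 of 4 tested genes rose, *Adamts2* among them, where 8.78% of all tested genes did. *Adamts2*, an enzyme that trims the front end of fibrillar procollagens, had 0.927, 0.819 and 0.658 FPKM in WT and 5.02, 6.46 and 5.19 FPKM in MSTN-KO. The rise was 1.86 (standard error 0.16, limma adjusted p = 6.63e-06). *Adamts14*, also listed for propeptide removal, was at a higher level in both groups and differed the other way. It had 12.0 ± 1.82 FPKM in WT and 8.65 ± 0.381 FPKM in MSTN-KO (SD, n = 3). The difference of -0.42 did not pass (limma adjusted p = 0.0631). *Pcolce2*, an enhancer of the rear-end trimming, had 16.8 ± 0.935 FPKM in WT and 26.5 ± 1.99 FPKM in MSTN-KO (SD, n = 3), a rise of 0.62. *Bmp1*, the enzyme it enhances, had 64.5 ± 10.6 FPKM in WT and 49.9 ± 2.01 FPKM in MSTN-KO and did not pass (limma adjusted p = 0.0918).

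In cross-linking, *Loxl3* of the lysyl oxidase family rose from 14.5 ± 1.35 to 32.2 ± 1.38 FPKM (SD, n = 3), by 1.10 (limma adjusted p = 8.31e-05), and the other 4 did not pass. *Lox*, the founding enzyme of that family, had 46.2 ± 4.18 FPKM in WT and 47.6 ± 14.8 FPKM in MSTN-KO. In prolyl hydroxylation, which makes the collagen helix stable at body temperature, 2 of 10 rose (20.0%, against 8.78%). These were *P4ha1*, a catalytic subunit, from 36.4 ± 2.96 to 52.2 ± 8.23 FPKM (by 0.50, limma adjusted p = 0.0270), and *Crtap*, by 0.38 (limma adjusted p = 0.0489), which is named here after its value was seen. *P4hb*, the partner subunit of *P4ha1*, had 380.0 ± 12.1 and 426 ± 43.2 FPKM (limma adjusted p = 0.398).

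None of 4 tested genes of lysyl hydroxylation and glycosylation and none of 11 of chaperones and export passed. *Plod2*, a lysyl hydroxylase, had 16.4 ± 1.495 FPKM in WT and 17.7 ± 4.88 FPKM in MSTN-KO. *Serpinh1*, the collagen chaperone HSP47, had 669 ± 41.0 and 725 ± 69.9 FPKM. Of 7 tested collagen receptors, 1 rose and 2 fell, where 8.78% of all tested genes rose and 8.96% fell. These are the 2 falls among the 41 genes, a number that was 10 after scaling to the same sum and 5 after scaling by the percentile 75. *Mrc2*, an endocytic collagen receptor, rose from 15.2 ± 3.15 to 27.7 ± 1.42 FPKM (by 0.84, limma adjusted p = 0.00241). *Ddr1*, a receptor tyrosine kinase, fell by 0.72 on the log2 scale from 57.0 ± 11.8 to 33.7 ± 0.655 FPKM (limma adjusted p = 0.00500). *Itgb1*, the common beta subunit of the collagen-binding integrins, fell by 0.66 from 195.5 ± 18.1 to 125.0 ± 25.2 FPKM (limma adjusted p = 0.0113). Of the alpha subunits listed beside it, *Itga1*, *Itga10* and *Itga11* were under 1 FPKM in every library and *Itga2* had no value. The fall of *Itgb1* therefore does not show a fall of collagen-binding integrins. The median log2 difference of the 41 genes was 0.07.

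**Figure D5:**
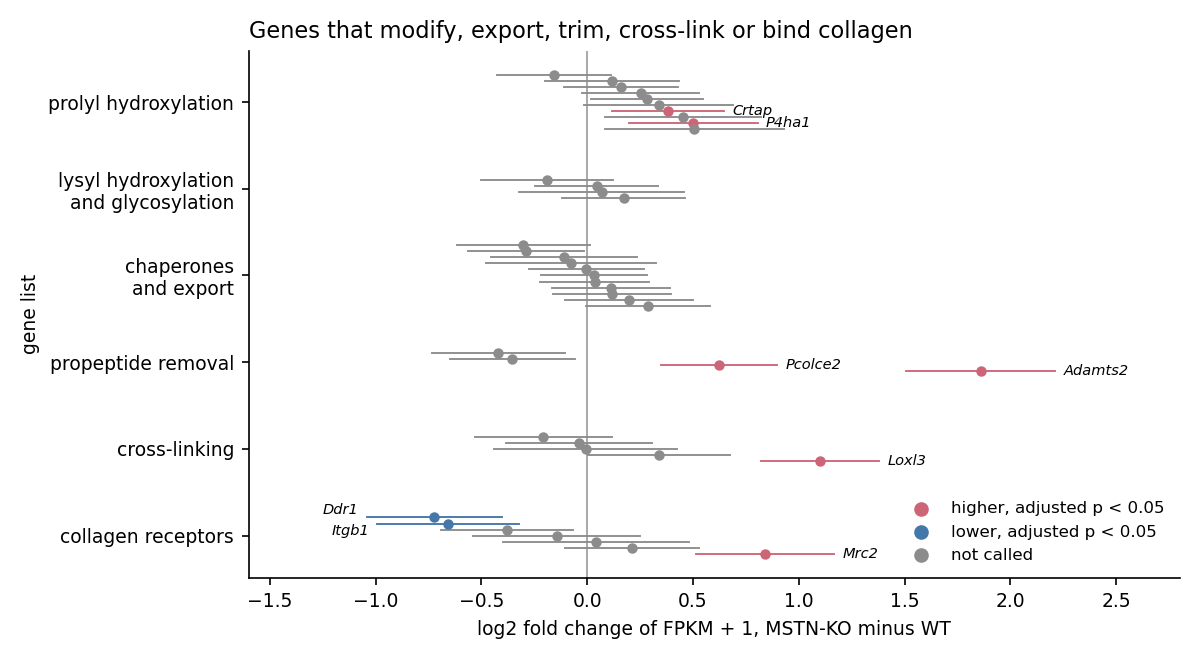
Log2 fold change of FPKM + 1, MSTN-KO minus WT, of 41 tested genes that modify, export, trim, cross-link or bind collagen, in 6 lists, with 95% intervals as bars. The 6 genes marked higher reach 1.86 in *Adamts2*, and the 2 marked lower, *Ddr1* and *Itgb1*, lie at -0.72 and -0.66 in the receptor list. *Adamts2* passed the filter only through MSTN-KO libraries.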

How the data were processed

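RNA-seq of 3 WT and 3 MSTN-KO libraries was analysed. The authors deposited FPKM values per gene, 1 file per library. The submitters' processing notes name Bowtie 0.12.2 and mm8 without a role. The counter and the use of strand are not given in the sources used here. FPKM divides by gene length and library size, so a few abundant genes can shift all others.

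Symbols and positions came from GENCODE M21 (GRCm38), matched for 14445 of 14548 identifiers, and promoters from RefSeq. The fit covered genes that reached 1 FPKM in any library, as log2(FPKM + 1) with limma 3.58.1 in R 4.3.3, eBayes with a trend, and Benjamini-Hochberg adjustment over all 10837. Other steps used scipy 1.17.1, numpy 2.4.6, matplotlib 3.10.9 and pandas 2.3.3 in Python 3.11.15. Depth was estimated from the smallest steps of low values with annotated lengths, so it is approximate. In simulated data of 10837 genes with 100 changed by 1 and 100 by 2 on the log2 scale, 82% and 97% were recovered and 10 unchanged genes were called. The changed genes were drawn from those with a mean log2(FPKM + 1) above 2, so the recovery does not cover lower genes. Chain ratios were compared by exact permutation over libraries.

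Members and lists were chosen with earlier results of these data known. Library values are given for every chain called or with a group mean of at least 10 FPKM. Biosynthesis genes named are the called genes with the 5 largest rises and falls and *P4ha1*, *P4hb*, *Plod2*, *Serpinh1*, *Bmp1* and *Lox*. *Crtap*, *Adamts14*, *Itga1*, *Itga2*, *Itga10* and *Itga11* were named after their values were seen. Alternatives were a pseudocount of 0.1, other filters, no trend, 3 scalings, a block for the replicate number, a length and GC correction by mgcv 1.9.3 and leaving out each library.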

Additional observations from a re-analysis of the deposited data

How the results depend on the processing

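*Col6a1*, *Col6a2*, *Col12a1*, *Col16a1* and *Col18a1* kept their direction and their side of the adjusted p under every alternative run. *Col3a1* was lost under quantile normalization and sum scaling, and the cause was not tested. With every library scaled to the same sum, all tested genes gave 360 higher and 2425 lower in place of 952 and 971, 10 collagen biosynthesis genes fell in place of 2, and the log2 differences turned to -0.087 for *Col1a2*, -0.19 for *Col5a1*, -0.015 for *Col4a1*, -0.15 for *Col4a2* and -0.10 for *Col7a1*, none of them past the threshold. Percentile 75 scaling and the length and GC correction, with and without the replicate block, each gave 5 lower biosynthesis genes. With a pseudocount of 0.1, the study's cutoffs in the limma fit called 254 genes higher and 500 lower in place of 131 and 249. Without the filter the median of the chains was 0.05.

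Over all tested genes, same-numbered libraries had deviations from their group means that correlated at -0.02, -0.13 and -0.14. Differently numbered ones ran from -0.07 to 0.16. These values cannot show whether libraries of the same number were prepared together. The replicate block gave 7 higher chains, adding *Col5a3* and *Col6a3*, and with the length and GC correction 8. Over all genes these settings gave 939 higher of 10837 and 940 higher of 10784.

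Leaving out 1 library at a time gave 5 to 8 higher chains. Differences ran from -0.023 to 0.24 for *Col5a1*, from -0.13 to 0.028 for *Col5a2* and from -0.0082 to 0.30 for *Col4a2*. Differences in the share of all FPKM ran from -0.00171 to 0.0115 percentage points for the fibrillar class, from -0.00371 to 0.00152 for the basement membrane class and from -9.08e-05 to 0.00032 for the short-chain class. Over all genes, 423 to 1184 rose and 606 to 1251 fell. The 22 low chains rest on few fragments and were tested only without the filter, where *Col4a6* was also called.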
